A study of Homo sapiens with 6 samples.

Results

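TSC22D3, DDIT4 and 7 further genes that respond to glucocorticoids or to FOXO transcription factors were followed through a ribosome profiling experiment in HEK293T cells. The 9 genes were chosen on 2 grounds. TSC22D3 and DDIT4 were taken because they had low values in the input library labelled PRMT1 inhibitor. KLF9, PER1, FKBP5, SGK1, TXNIP, ARRDC4 and FOXO3 were added because textbook knowledge places them under glucocorticoid, FOXO or related metabolic control. These 7 were also chosen with earlier results of these data known. The question was whether the low values of the first pair are shared by the others. The 9 genes are 9 of 60420 gene identifiers in the deposited table, and 7 of the 9 are among the 9040 genes whose mean over all libraries was at least 5 TPM (a measure of the share of transcripts, scaled for gene length and for the library total). SGK1 with a mean of 4.87 TPM and ARRDC4 with 3.02 TPM were under that filter, and KLF9, at a mean of 5.6 TPM, was the member nearest above it.

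HEK293T cells derive from human embryonic kidney and express the large T antigen of SV40. The cells had been treated with a PRMT1 inhibitor, with a PRMT4 inhibitor or with the vehicle DMSO. PRMT1 and PRMT4 (also called CARM1) are enzymes that methylate arginine in proteins. The labels give no compound, dose or duration, and no genetic change. Each of the 3 treatments had 1 input library, read here as the RNA level, and 1 footprint library, made from the RNA fragments that ribosomes shield from nuclease. There were no replicates, so every ratio compares single libraries, has no error and carries no test.

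Glucocorticoid hormones act through the receptor NR3C1, which binds DNA once hormone is attached and switches on genes such as TSC22D3, FKBP5, PER1, KLF9 and SGK1. FOXO factors are kept out of the nucleus when the PI3K-AKT pathway, or the related kinase SGK1, phosphorylates them, and they switch on TSC22D3 and other stress and growth-arrest genes when that signal is low. DDIT4, an inhibitor of the growth kinase complex mTORC1, is reached by several routes: glucocorticoids, low oxygen and the amino acid stress factor ATF4. TXNIP and ARRDC4 encode arrestin-domain proteins that restrain glucose uptake and are switched on by MondoA with its partner MLX when sugar phosphates are plentiful.

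The promoters of 4 of the genes are printed to show the motif matches described after them. Each run holds the 250 bases before a RefSeq transcript start, read in the direction of transcription, from RefSeq's GRCh38.p14 assembly. This is not the authors' build, and no measurement here is tied to these coordinates. All 9 genes had entries, with 19 start windows between them. In the runs for TSC22D3 (minus strand, chrX:107717063-107717312) and TXNIP (minus strand, chr1:145996580-145996829), the windows shown are the ones with a FOXO motif. DDIT4 lies on the plus strand at chr10:72273674-72273923 and ARRDC4 on the plus strand at chr15:97960453-97960702. Capitals mark TGTTTAC or its reverse complement (the FOXO motif), the carbohydrate response element used by MondoA-MLX (a pair of CACGNG boxes with 5 bases between them), CACGTG (the E-box) and, in DDIT4, ACGTG (the core of the hypoxia response element).
TSC22D3: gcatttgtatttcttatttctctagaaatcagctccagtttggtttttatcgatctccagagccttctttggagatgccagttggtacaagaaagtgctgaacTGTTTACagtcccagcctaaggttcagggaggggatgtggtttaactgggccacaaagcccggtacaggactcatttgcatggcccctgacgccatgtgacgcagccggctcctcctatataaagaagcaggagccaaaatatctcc
DDIT4: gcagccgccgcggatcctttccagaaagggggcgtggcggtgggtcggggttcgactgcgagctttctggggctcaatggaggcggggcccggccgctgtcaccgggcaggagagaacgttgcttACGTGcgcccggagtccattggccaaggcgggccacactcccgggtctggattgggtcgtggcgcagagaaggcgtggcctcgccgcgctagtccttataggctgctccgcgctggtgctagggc
TXNIP: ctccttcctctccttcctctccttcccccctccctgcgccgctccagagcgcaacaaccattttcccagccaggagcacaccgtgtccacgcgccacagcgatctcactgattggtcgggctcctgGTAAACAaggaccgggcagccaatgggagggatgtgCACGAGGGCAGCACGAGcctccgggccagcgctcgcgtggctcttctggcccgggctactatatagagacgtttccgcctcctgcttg
ARRDC4: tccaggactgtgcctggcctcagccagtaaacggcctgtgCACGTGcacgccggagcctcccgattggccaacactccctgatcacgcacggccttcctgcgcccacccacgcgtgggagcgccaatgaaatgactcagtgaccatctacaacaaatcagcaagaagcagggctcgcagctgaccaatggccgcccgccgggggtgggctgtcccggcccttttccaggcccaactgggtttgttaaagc

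The FOXO motif began 147 bases before the start in TSC22D3 and 124 bases before it in TXNIP. It was present, on either strand, in 2 of the 19 windows and in 2.98% of the 35116 windows of all genes. The carbohydrate response element, at 88 bases before the start of TXNIP, was in 16 of the 35116 windows, or 0.0456%. An E-box was found in 3 of the 19 windows, 1 each of PER1, FKBP5 and ARRDC4, and in 6.34% of all windows. The ACGTG core, which also lies inside every E-box, was found in 7 of the 19 windows and in 18.5% of all windows. The glucocorticoid receptor motif AGAACA (12.4% of all windows) and the ATF4 motif TGATGNAA (3.14%) were in none of the 19 windows. These matches describe letters within a short window only.

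Before the members' values, 1 property of the libraries has to be stated. Across the 9040 tested genes, the footprint ratio under each inhibitor label was more like the input ratio under the opposite inhibitor label. Pearson's r across genes was 0.32 between the input labelled PRMT1 inhibitor and the footprints labelled PRMT4 inhibitor, against 0.26 for input and footprints both labelled PRMT1. It was 0.45 between the input labelled PRMT4 inhibitor and the footprints labelled PRMT1 inhibitor, against 0.21 for the pair both labelled PRMT4. These are descriptions across genes, which are not independent replicates. Whether the inhibitor labels of the inputs or of the footprints were exchanged was not tested, and every efficiency within a label rests on these labels. Libraries are therefore called by their labels throughout, as PRMT1-label and PRMT4-label. Protein-coding genes took 33.4% to 45.7% of TPM in the inputs and 62.3% to 74.3% in the footprints. All 10 genes of an HEK293T marker list were above 0 in at least 1 library, and 5 of them were at 1 TPM or more in every library. Of 9 matched markers of other cell types, 7 were also above 0 in at least 1 library, and the highest value was 7.75 TPM. Of these, 2 were at 1 TPM or more in every library. The remaining 2, HBB of red blood cells and SFTPC of lung epithelium, were at 0 throughout. Ratios below are log2 of (TPM + 1) over (TPM + 1), centred on the median tested gene. Before centring that median was -0.16 in the PRMT1-label input and -0.37 in the PRMT4-label input, against -0.15 and -0.01 in the PRMT1-label and PRMT4-label footprints.

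TSC22D3 (ENSG00000157514.16_3, chromosome X), also known as GILZ, is a glucocorticoid-induced leucine zipper protein that dampens inflammatory transcription. Its input level was 33.1 TPM in the PRMT1-label library and 40.2 TPM in the PRMT4-label library, against 80.6 TPM in DMSO. Its footprint level was 71.4 TPM in the PRMT1-label library and 56.8 TPM in the PRMT4-label library, against 97.7 TPM in DMSO. It was thus the most abundant member in every library, and all 4 inhibitor libraries were below their DMSO library. The PRMT1-label input stood at 0.411 of DMSO and the PRMT4-label footprints at 0.581 of DMSO. A lower level in bulk RNA can mean fewer cells expressing the gene or less RNA per cell, and these cannot be told apart.

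DDIT4 (ENSG00000168209.4_2, chromosome 10), also known as REDD1, restrains mTORC1 under stress. Its input level was 17.0 TPM in the PRMT1-label library and 27.7 TPM in the PRMT4-label library, against 39.0 TPM in DMSO. Its footprint level was 41.7 TPM in the PRMT1-label library and 29.6 TPM in the PRMT4-label library, against 55.4 TPM in DMSO. As for TSC22D3, the lowest input was the PRMT1-label one and the lowest footprint library the PRMT4-label one. Those libraries stood at 0.437 and 0.534 of their DMSO libraries.

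Relative to the median gene, TSC22D3 stood at -1.1 and DDIT4 at -0.99 in the PRMT1-label input. These values are the ones for which the pair was named, and they placed it at ranks 16 and 19 from the lowest of 9040 genes, or 2 and 3 of the 8117 protein-coding ones. The footprint values were known as well when the pair was named, so they too are descriptions. There the pair stood apart under the other label: in the PRMT4-label footprints DDIT4 was at -0.88 and TSC22D3 at -0.77, ranks 42 and 63 of 9040. Under their own label, in the PRMT1-label footprints, TSC22D3 was at -0.30 and DDIT4 at -0.26, ranks 1629 and 1961. The PRMT4-label input separated the pair, with TSC22D3 at -0.62 (rank 221) and DDIT4 at -0.12 (rank 3216). The 2 input ratios share the DMSO input, and the 2 footprint ratios share the DMSO footprints.

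**Figure D1:**
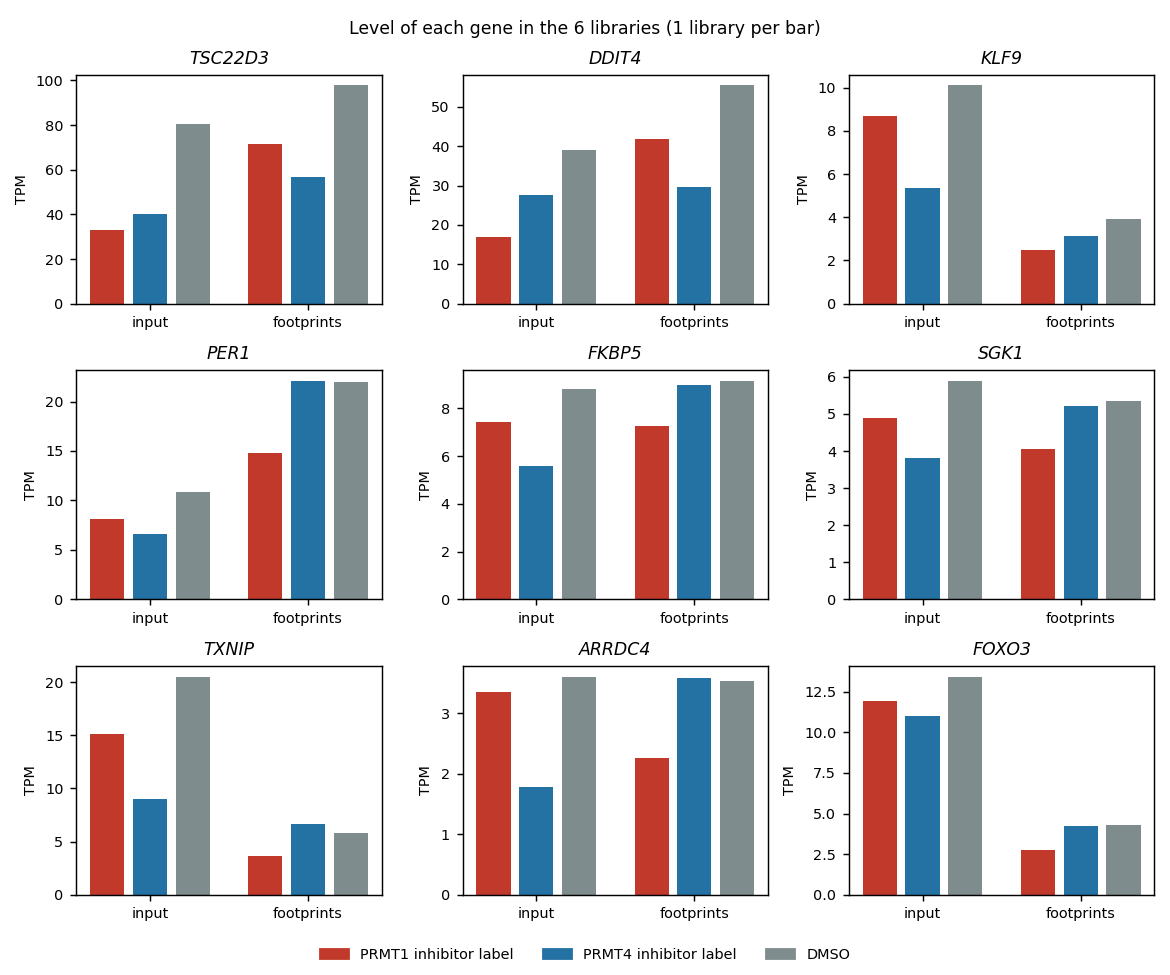
TPM of the 9 genes in the 6 libraries, 1 bar per library, with PRMT1 inhibitor label, PRMT4 inhibitor label and DMSO from left to right for input and for footprints. Axes start at 0 and differ between genes, and TSC22D3 spans 33.1 to 97.7 TPM while ARRDC4 spans 1.78 to 3.61 TPM.

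The bars of TPM per library show that the other glucocorticoid-induced genes followed another order. KLF9 (ENSG00000119138.4_2, chromosome 9), a zinc finger transcription factor and direct glucocorticoid receptor target, had an input level of 8.68 TPM in the PRMT1-label library and 5.35 TPM in the PRMT4-label library, against 10.1 TPM in DMSO. Its footprints were at 2.47 TPM in the PRMT1-label library and 3.12 TPM in the PRMT4-label library, against 3.9 TPM in DMSO. The lowest input of KLF9 was the PRMT4-label one, at 0.53 of DMSO, and its lowest footprint library was the PRMT1-label one. Relative to the median gene its PRMT1-label input, at -0.04, was near 0.

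PER1 (ENSG00000179094.15_3, chromosome 17), a clock protein that represses its own transcription and is acutely induced by glucocorticoids, had an input level of 8.14 TPM in the PRMT1-label library and 6.63 TPM in the PRMT4-label library, against 10.9 TPM in DMSO. Footprints stood at 14.8 TPM in the PRMT1-label library and 22.08 TPM in the PRMT4-label library, against 21.98 TPM in DMSO. PER1 footprints were low only in the PRMT1-label library, at 0.673 of DMSO, and the PRMT4-label footprints lay level with DMSO. Its centred ratio was -0.22 in the PRMT1-label input and -0.27 in the PRMT4-label input.

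FKBP5 (ENSG00000096060.14_2, chromosome 6), a co-chaperone that lowers the hormone affinity of the glucocorticoid receptor and is itself induced by it, had an input level of 7.44 TPM in the PRMT1-label library and 5.6 TPM in the PRMT4-label library, against 8.8 TPM in DMSO. Its footprint level was 7.27 TPM in the PRMT1-label library and 8.98 TPM in the PRMT4-label library, against 9.15 TPM in DMSO. After centring, FKBP5 stood between -0.21 and -0.02 in all 4 ratios, the narrowest span of the 9 genes together with SGK1. FKBP5 is among the most widely used reporters of receptor activity, and its largest departure was in the PRMT4-label input.

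SGK1 (ENSG00000118515.11_3, chromosome 6), a kinase that phosphorylates FOXO3, was under the filter and is given by its values. Its input level was 4.89 TPM in the PRMT1-label library and 3.81 TPM in the PRMT4-label library, against 5.89 TPM in DMSO. In footprints it had 4.05 TPM in the PRMT1-label library and 5.21 TPM in the PRMT4-label library, against 5.36 TPM in DMSO. The order of its libraries was that of KLF9 and FKBP5. NR3C1, the receptor itself, was looked up after the other values were seen and had an input level of 5.19 TPM in the PRMT1-label library and 3.07 TPM in the PRMT4-label library, against 4.95 TPM in DMSO. Its footprints were at 1.94 TPM in the PRMT1-label library and 2.26 TPM in the PRMT4-label library, against 2.06 TPM in DMSO.

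TXNIP (ENSG00000265972.5_2, chromosome 1), which binds thioredoxin and promotes removal of glucose transporters from the cell surface, had the lowest centred ratios of the other 7 genes in both inputs and in the PRMT1-label footprints. Its input level was 15.2 TPM in the PRMT1-label library and 9.0 TPM in the PRMT4-label library, against 20.5 TPM in DMSO. Footprints stood at 3.64 TPM in the PRMT1-label library and 6.62 TPM in the PRMT4-label library, against 5.85 TPM in DMSO. The lowest libraries were the reverse of those of DDIT4: the PRMT4-label input, at 0.439 of DMSO, and the PRMT1-label footprints, at 0.622 of DMSO. In the PRMT4-label input TXNIP was at -0.74, rank 100 from the lowest of 9040 genes, below TSC22D3.

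ARRDC4 (ENSG00000140450.8_2, chromosome 15), its relative in the arrestin-domain family, was under the filter. Its input level was 3.36 TPM in the PRMT1-label library and 1.78 TPM in the PRMT4-label library, against 3.61 TPM in DMSO. Its footprint level was 2.26 TPM in the PRMT1-label library and 3.59 TPM in the PRMT4-label library, against 3.53 TPM in DMSO. The low libraries of ARRDC4 were those of TXNIP, at 0.493 of DMSO in the PRMT4-label input and 0.64 of DMSO in the PRMT1-label footprints. At such levels a difference of under 2 TPM makes up these ratios.

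FOXO3 (ENSG00000118689.14_2, chromosome 6), a transcription factor of the FOXO family, had an input level of 12.0 TPM in the PRMT1-label library and 11.0 TPM in the PRMT4-label library, against 13.4 TPM in DMSO. In footprints it had 2.73 TPM in the PRMT1-label library and 4.22 TPM in the PRMT4-label library, against 4.3 TPM in DMSO. Its input ratios, centred, were 0.00 under the PRMT1 label and 0.10 under the PRMT4 label. The PRMT1-label footprints alone were low, at -0.36.

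**Figure D2:**
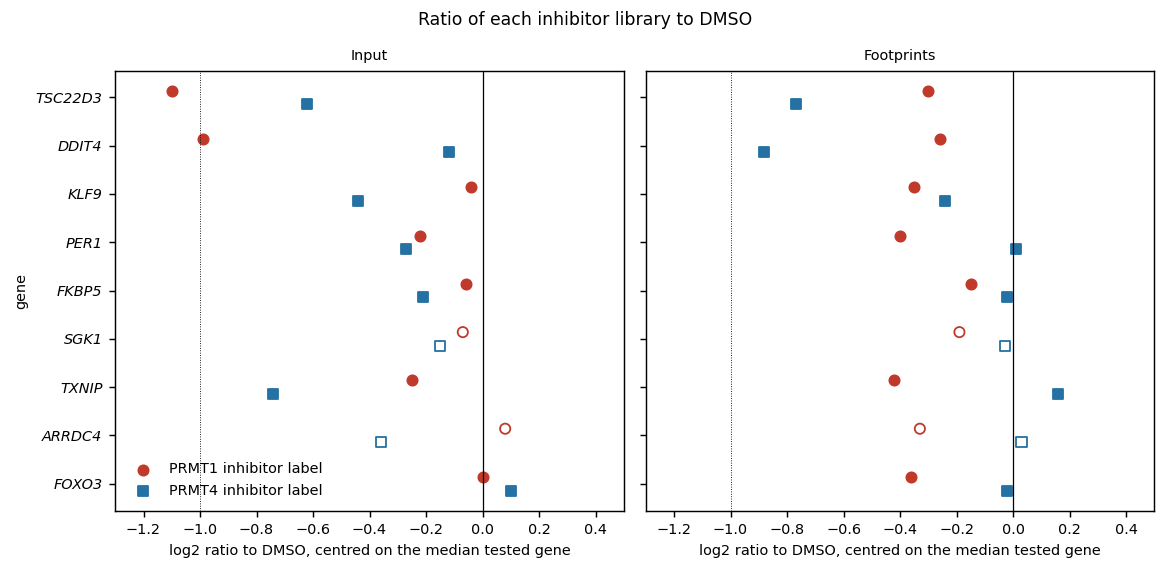
Centred log2 ratio of each inhibitor library to DMSO for the 9 genes, input on the left and footprints on the right, with circles for the PRMT1 inhibitor label, squares for the PRMT4 inhibitor label and open symbols for the 2 genes under the filter. TSC22D3 and DDIT4 lie far left in the PRMT1-label input and the PRMT4-label footprints, at -1.1 to -0.77, where the other members lie between -0.25 and 0.16.

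The 9 genes divided by which libraries were lowest in TPM, without centring. TSC22D3 and DDIT4 had their lowest input level in the PRMT1-label library and their lowest footprint level in the PRMT4-label library, an order shown by 8.2% of tested genes. That order includes the input value for which they were named. The other 7 members, KLF9, PER1, FKBP5, SGK1, TXNIP, ARRDC4 and FOXO3, all had their lowest input level in the PRMT4-label library and their lowest footprint level in the PRMT1-label library. That second order was shown by 47.1% of tested genes. The scale bears on these shares, since the median tested gene itself was lower in the PRMT4-label input and the PRMT1-label footprints. On centred ratios the first order was shown by 12.3% and the second by 22.6% of tested genes. TSC22D3 and DDIT4 kept the first order on that scale and 6 of the other 7 the second, while FOXO3, whose centred inputs were 0.00 under the PRMT1 label and 0.10 under the PRMT4 label, did not.

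Set side by side in the plot of centred ratios, the 7 tested members did not share a pattern. In the PRMT1-label input, TSC22D3 was the 1 member of 7 that was at least 2-fold below the median gene, where 0.199% of all tested genes were. Its value there chose it, and DDIT4, at -0.99, lay just short of the line, which it passed without centring (-1.15) and with a pseudocount of 0.1 (-1.02). In the same library the 5 other tested members stood between -0.25 for TXNIP and 0.00 for FOXO3. In the PRMT4-label footprints, 0 of 7 members passed the 2-fold line, against 0.254% of tested genes, and the 5 others stood between -0.24 for KLF9 and 0.16 for TXNIP. No member passed it in the PRMT4-label input (0.465% of tested genes) or in the PRMT1-label footprints (0.575% of tested genes). Without centring TXNIP passed it in the PRMT4-label input, at -1.11.

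Counting any departure below the median gene, which 50.0% of tested genes show in each ratio by construction, 6 of 7 members were below it in the PRMT1-label input, with a median of -0.22. The count was 6 of 7 in the PRMT4-label input with a median of -0.27. It was 7 of 7 in the PRMT1-label footprints with a median of -0.35, and 5 of 7 in the PRMT4-label footprints with a median of -0.02. Without centring, all 9 members had less TPM than DMSO in both inhibitor inputs, as did 70.5% of tested genes. In all 4 inhibitor libraries 6 of 9 members were below DMSO, against 34.9% of tested genes, and PER1, TXNIP and ARRDC4 missed this through the PRMT4-label footprints.

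The PRMT1-label and PRMT4-label libraries can also be compared directly, without DMSO. In the inputs DDIT4 was at -0.86 for PRMT1 label over PRMT4 label, rank 156 from the lowest of 9040, and TSC22D3 was at -0.46. KLF9 at 0.42, TXNIP at 0.50, FKBP5 at 0.17 and PER1 at 0.07 lay on the other side, and FOXO3 was at -0.08. None of the 7 was at least 2-fold lower, against 1.03% of tested genes. In the footprints the same comparison gave 0.63 for DDIT4 and 0.47 for TSC22D3, while TXNIP was at -0.57, PER1 at -0.40 and FOXO3 at -0.34. None was at least 2-fold lower there either, against 0.442% of tested genes.

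Thus TSC22D3 and DDIT4 were lower under the PRMT1 label in the input and higher under it in the footprints, and KLF9, PER1, FKBP5 and TXNIP did the opposite. Each of these 2 patterns was shown by 2888 of 9040 tested genes, so a reversal between input and footprints was common across the table. Centring put 4520 of the 9040 genes below 0 in each comparison, which makes the 2 counts equal. Many genes would show a reversal even if the 2 comparisons were unrelated. Pearson's r between the input and footprint comparisons was -0.31 across all tested genes and -0.42 across the protein-coding ones. FOXO3 was lower under the PRMT1 label in both, but without centring its input value was 0.11 and it joined the 4. No other sign among these 7 members depended on the centring.

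**Figure D3:**
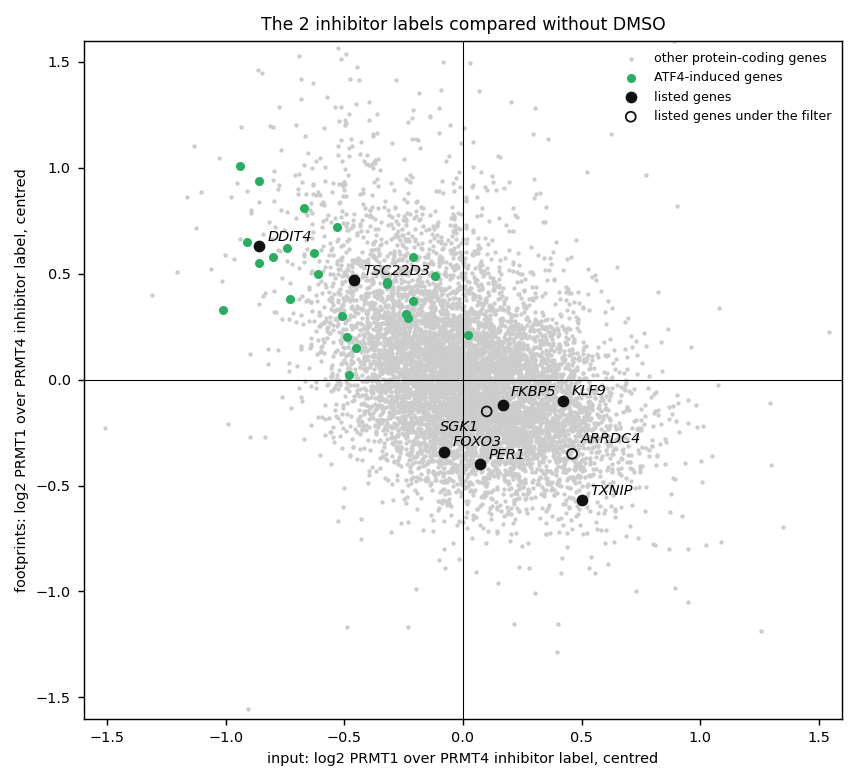
Centred log2 ratio of PRMT1 label over PRMT4 label in input (x axis) and in footprints (y axis), with protein-coding genes in grey, ATF4-induced genes in green and the 9 genes in black, open where under the filter. DDIT4 at -0.86 and 0.63 and TSC22D3 at -0.46 and 0.47 lie in the upper left with most ATF4-induced genes. The signs of the upper left were shown by 2888 of 9040 tested genes. TXNIP at 0.50 and -0.57 lies in the lower right, and 19 protein-coding genes fall outside the axes.

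Translation efficiency, the footprint level over the input level, differed widely between the members already in DMSO. In DMSO the footprint TPM over input TPM was 2.02 for PER1, 1.42 for DDIT4 and 1.21 for TSC22D3, against 0.285 for TXNIP, 0.32 for FOXO3 and 0.386 for KLF9. The median over 8117 protein-coding genes was 1.08. For TSC22D3 the quotient was 2.16 under the PRMT1 label and 1.41 under the PRMT4 label, against 1.21 in DMSO. For DDIT4 it was 2.45 under the PRMT1 label and 1.07 under the PRMT4 label, against 1.42 in DMSO. For TXNIP it was 0.24 under the PRMT1 label and 0.736 under the PRMT4 label, against 0.285 in DMSO. Its order of the 2 labels was opposite to that of DDIT4, which follows from the input and footprint levels already given.

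As centred log2 ratios to DMSO, the efficiency of TSC22D3 was 0.79 under the PRMT1 label and -0.16 under the PRMT4 label (0.21 there without centring), and that of DDIT4 was 0.73 under the PRMT1 label and -0.77 under the PRMT4 label. TXNIP was at -0.17 under the PRMT1 label and 0.89 under the PRMT4 label, higher than 98.8% of tested genes. No member was at least 2-fold lower, against 0.929% of tested genes under the PRMT1 label and 2.13% under the PRMT4 label. When each footprint library was divided by the input of the other inhibitor label, DDIT4 stood at -0.16 for the PRMT1-label footprints and 0.11 for the PRMT4-label footprints. TSC22D3 stood at 0.30 and 0.32 for the same libraries, and TXNIP at 0.31 and 0.40. The sign therefore depended on which input was the divisor for DDIT4 under both labels, for TXNIP under the PRMT1 label and for TSC22D3 under the PRMT4 label. It did so for KLF9 under both labels, at 0.07 for the PRMT1-label footprints and -0.21 for the PRMT4-label footprints with the other input. FKBP5 changed sign under the PRMT1 label, from -0.10 to 0.04 with the other input. Under the PRMT4 label FKBP5 stood at 0.17, and at 0.03 with the other input. PER1 kept its signs, at -0.14 for the PRMT1-label footprints and 0.22 for the PRMT4-label footprints.

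The wider gene lists hold the other genes of the same control, without the 9 members. Their ratios are relative to the median tested gene, and without centring each would be lower by the shifts given above. Of the glucocorticoid-induced genes 14 of 38 passed the filter. None was 2-fold lower in any input or footprint ratio to DMSO, where 0.199% to 0.575% of tested genes were. Their median was -0.04 in the PRMT1-label input, with 8 of 14 below 0, and -0.12 in the PRMT4-label input, with 9 of 14 below 0. In the footprints it was -0.25 under the PRMT1 label, with 10 of 14 below 0, and -0.08 under the PRMT4 label, with 8 of 14 below 0. By lowest library in TPM, 11 of the 14 had the order of the other 7 members, against 47.1% of tested genes. On centred ratios 22.6% of tested genes had that order, and the list was not counted on that scale. The order of TSC22D3 and DDIT4 was shown by 2 of the 14, against 8.2% of tested genes. The 2 were MT2A, a metallothionein gene, and CEBPB, a transcription factor gene that is also on the ATF4 list. MT2A belongs to a family of similar genes, so its values are uncertain. MT2A stood at -0.25 in the PRMT1-label input and -0.53 in the PRMT4-label footprints, and CEBPB at -0.24 and -0.23 in the same libraries. The phosphatase gene DUSP1 stood at 0.41 in the PRMT1-label input and 0.33 in the PRMT4-label input, the receptor tyrosine kinase antagonist SPRY1 at -0.44 and -0.83, and the glutamine synthetase gene GLUL at -0.30 in both.

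The FOXO-induced genes had medians near 0 in all 4 ratios. The order of TSC22D3 and DDIT4 was shown by 2 of 25, against 8.2% of tested genes. That of the other members was shown by 14 of 25, against 47.1% of tested genes. These counts are in TPM, and the list was not counted on centred ratios. The 2 with the pair's order were ULK1, a kinase that starts autophagy, and STK11, a kinase that activates AMPK. STK11 is named here after its values were seen. Of the 25 past the filter, the median was -0.03 in the PRMT1-label input and -0.01 in the PRMT4-label input, and 0.03 in the PRMT1-label footprints and -0.09 in the PRMT4-label footprints. GADD45A, a DNA damage and growth arrest gene, had the highest input ratio, at 1.1 under the PRMT4 label against 0.31 under the PRMT1 label. GABARAPL1, an autophagy gene, was above the median gene in all 4 ratios, at 0.32 to 0.87. The peroxiredoxin gene PRDX3 was below it in all 4, at -0.65 to -0.23.

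Among the genes that act on the pathways, 14 genes of the receptor machinery had medians of -0.14 and -0.22 in the PRMT1-label and PRMT4-label inputs and of -0.04 and -0.15 in the PRMT1-label and PRMT4-label footprints. HSPA4, a chaperone on that list, stood at -1.05 in the PRMT1-label footprints. The 18 genes of the PI3K-AKT-SGK pathway had medians between -0.15 and -0.06. NDRG1, a substrate of SGK1 that is also induced by hypoxia, stood at -1.03 in the PRMT1-label footprints and -0.57 in the PRMT4-label input, which are the low libraries of TXNIP. The 23 genes of mTORC1 control, the complex that DDIT4 restrains, had medians between -0.02 and 0.09. The 12 MondoA-MLX and arrestin-domain genes had medians between -0.16 and 0.01, and ARRDC1, another arrestin-domain gene, stood at -0.50 to -0.25.

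**Figure D4:**
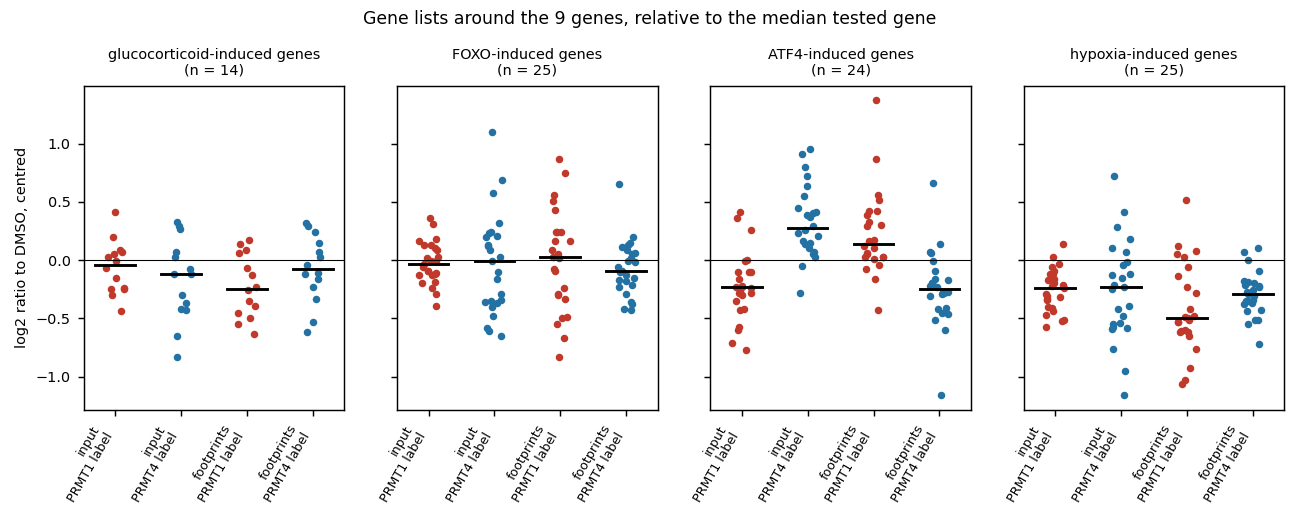
Centred log2 ratios to DMSO of the tested genes of 4 lists, without the 9 members, in the PRMT1-label and PRMT4-label inputs and the PRMT1-label and PRMT4-label footprints, with the median of each as a bar. The glucocorticoid-induced and FOXO-induced medians lie between -0.25 and 0.03, and the ATF4-induced medians are -0.24 and -0.25 in the PRMT1-label input and PRMT4-label footprints and 0.27 and 0.14 in the other 2.

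Genes induced by ATF4, the transcription factor of amino acid stress, had low medians in the libraries where DDIT4 and TSC22D3 were lowest. DDIT4 is itself an ATF4 target but was kept out of the list. Of its 24 tested genes, 20 were below the median gene in the PRMT1-label input and 20 in the PRMT4-label footprints, with medians of -0.24 and -0.25. In the PRMT4-label input 2 of 24 were below it, with a median of 0.27, and in the PRMT1-label footprints 4 of 24, with a median of 0.14. Without centring these last medians were -0.09 and -0.01, so the list lay above the median gene there and not above DMSO. The pair differed from the list there. In the PRMT4-label input TSC22D3 stood at -0.62 and DDIT4 at -0.12, and the lowest value of the list was -0.28. In the PRMT1-label footprints TSC22D3 stood at -0.30 and DDIT4 at -0.26, and the lowest value of the list was -0.43. In the direct comparison of the labels, 23 of 24 were lower under the PRMT1 label in the input, with a median of -0.52, and 0 of 24 were lower in the footprints, with a median of 0.47. PHGDH, the entry enzyme of serine synthesis, stood at -0.77 in the PRMT1-label input and -0.60 in the PRMT4-label footprints. GARS1, a transfer RNA synthetase, stood at -0.71 and -0.28 in these libraries, and CBS, an enzyme of sulphur amino acid metabolism, at -0.57 and -1.16. CBS has a near-identical copy in the genome, so its values are uncertain. Other genes of the list were not low in the PRMT1-label input and the PRMT4-label footprints. DDIT3 stood at 0.36 and 0.66 there, and SLC3A2 at 0.26 and 0.07. ATF3 stood at 0.41 and -0.01, and TRIB3 at -0.10 and 0.14.

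Hypoxia-induced genes, a further group from which DDIT4 was left out, had medians below 0 in every inhibitor library. Of the 25 tested, 23 were below it in the PRMT1-label input and 19 in the PRMT4-label input, with medians of -0.24 and -0.23. In the footprints 20 were below it under the PRMT1 label and 22 under the PRMT4 label, with medians of -0.50 and -0.29. VEGFA stood at -0.31 in the PRMT1-label input but at 0.41 in the PRMT4-label input. STC2, which is also on the ATF4 list, stood at -0.16 and 0.72 in the same libraries. LDHA, lactate dehydrogenase A, stood at -0.57 in the PRMT1-label input and -1.16 in the PRMT4-label input, and PGK1, a glycolytic kinase, at -0.52 and -0.95. In the lists the lowest libraries of TXNIP and NDRG1 were thus also those of LDHA's lowest ratios. In DDIT4's lowest libraries, the PRMT1-label input and the PRMT4-label footprints, both lists had low medians. These were -0.24 and -0.29 for the hypoxia-induced genes and -0.24 and -0.25 for the ATF4-induced genes. Which route bore on DDIT4 was not tested.

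By distance over the 4 centred ratios, the gene most like TSC22D3 among 3606 protein-coding genes with a mean of at least 20 TPM was DDIT4 itself, at 0.53. The pair was named together with these ratios known, so their closeness is in part fixed by that choice. Next to TSC22D3 came YARS1, a transfer RNA synthetase, at 0.56, B9D1, a gene of the primary cilium, at 0.58, ENSG00000274276 (CBSL in GENCODE) at 0.62 and G3BP1, a stress granule protein, at 0.64. The genes most like DDIT4 were ENSG00000274276 at 0.41, YARS1 at 0.46, the histone gene H2AC20 at 0.47, BCAT1, a branched-chain aminotransferase, at 0.51, and CKMT1B, a mitochondrial creatine kinase, at 0.52. H2AC20, CKMT1B and CBSL, the copy of CBS, have near-identical copies elsewhere in the genome, so their values are uncertain. YARS1 had 104 TPM in the PRMT1-label input and 107 TPM in the PRMT4-label input, against 178 TPM in DMSO, and 142 TPM in the PRMT1-label footprints and 99.4 TPM in the PRMT4-label footprints, against 180 TPM in DMSO.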

How the data were processed

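Per the labels' protocols, lysates of HEK293T cells were digested with RNase I and monosome fractions were collected for footprint libraries. The labels use the same protocol text for the inputs, so the preparation of input RNA has no separate description. The deposited table holds TPM as computed by the authors, 1 column per library. The submitters' processing notes list RSEM 1.2.22, STAR 2.4.2a, Bowtie 1.1.2 and cutadapt 1.18 with the build GRCh37.p13, but not their roles. TPM keeps no depth, so sequencing depth is unknown, and neither intervals nor a count test could be had. TPM is also a share, so a gain of some RNAs lowers the others.

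From the 60461 identifiers, 41 copies on the Y pseudoautosomal region were dropped. Of the rest 55725 had a symbol, and gene types came from GENCODE release 29. Ratios of TPM + 1 were taken over the 9040 genes with a mean of at least 5 TPM, in log2, and centred on their median. The pseudocount of 1 understates differences of low genes. Translation efficiency was the footprint ratio minus the input ratio of the same label. Python 3.11.15, numpy 2.4.6 and pandas 2.3.3 were used, and the calculation was tested on simulated data. With 1 library per group no test was possible. Counts of genes past a line use 2-fold.

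The members and gene lists were chosen with earlier results of these data known, and the count of which libraries were lowest was added after the values were seen. All 9 members are named. From each list the named genes come from the 2 highest and 2 lowest by input or footprint ratio of either label, and the 5 nearest genes are given for TSC22D3 and DDIT4. Alternatives were other pseudocounts, other filters on low values, no centring, TPM rescaled to protein-coding genes, an adjustment for GC content and transcript length and, for translation efficiency, the input of the other label. The TSC22, KLF and clock lists are given in the closing section. Promoter sequences are RefSeq's, on GRCh38.p14; the 50 bases after each start were left out.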

Additional observations from a re-analysis of the deposited data

Results flagged for a closer look

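For several members the 2 inhibitor labels lay on opposite sides of DMSO. These differences rest on 1 library each and were not tested. Translation efficiency of TSC22D3 was 0.79 under the PRMT1 label and -0.16 under the PRMT4 label, as centred log2 ratios to DMSO, and 0.21 under the PRMT4 label without centring. That of DDIT4 was 0.73 under the PRMT1 label and -0.77 under the PRMT4 label. KLF9 stood at -0.32 under the PRMT1 label and 0.18 under the PRMT4 label, and PER1 at -0.18 under the PRMT1 label and 0.27 under the PRMT4 label. Translation efficiency of TXNIP was -0.17 under the PRMT1 label and 0.89 under the PRMT4 label. Footprints of TXNIP alone were -0.42 under the PRMT1 label and 0.16 under the PRMT4 label. The 5 efficiencies divide each footprint library by the input of its own label. The sign of 1 or both labels turns with the other input for TSC22D3, DDIT4, KLF9 and TXNIP. KLF9 then stood at 0.07 for the PRMT1-label footprints and -0.21 for the PRMT4-label footprints, and PER1 kept its signs, at -0.14 and 0.22.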

How the results depend on the processing

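With 1 library per group no library could be left out in turn, no spread between replicates exists, and the unknown depth sets an unknown limit on the low genes, SGK1 and ARRDC4 above all. No paired analysis of replicates was possible because each treatment had 1 input and 1 footprint library, and no comparison rests on a test. Of 438 single-gene values under the alternatives, 391 stayed within 0.2 log2 of the value reported. The share differed between settings. With the input of the other label 8 values moved further and 6 stayed. Without centring 14 moved and 42 stayed, and with no filter 18 moved and 54 stayed. TSC22D3 in the PRMT1-label input ran from -1.26 to -1.04 and DDIT4 from -1.15 to -0.87. In the PRMT4-label footprints TSC22D3 ran from -0.78 to -0.70 and DDIT4 from -0.90 to -0.80. Without centring, each ratio moves by the median of the tested genes, by construction. A larger pseudocount understates differences of low genes, and a looser filter admits more and lower genes. No other cause of the shifts that follow was tested.

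The members' median in the PRMT4-label input was -0.64 without centring and -0.61 with no filter, against -0.27. Their median translation efficiency was 0.55 without centring and 0.52 with no filter under the PRMT4 label, against 0.17, and 0.04 with the other label's input under the PRMT1 label, against -0.17. Their median for PRMT1 over PRMT4 label in the input was 0.28 with no filter, against 0.07.

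The number of tested genes at least 2-fold lower varied by more than 1.5 times under several settings. For the PRMT1-label input it was 34 with a pseudocount of 0.1, 10 with a pseudocount of 5, 29 with a filter of 1 TPM and 66 with no filter, against 18. For the PRMT4-label input it was 25 with a pseudocount of 5, 72 with a filter of 1 TPM, 234 with no filter and 204 without centring, against 42. For the PRMT1-label footprints it was 83 and 27 with pseudocounts of 0.1 and 5, 127 with a filter of 1 TPM, 216 with no filter and 94 without centring, against 52. For the PRMT4-label footprints it was 54 and 10 with pseudocounts of 0.1 and 5, 67 with a filter of 1 TPM and 99 with no filter, against 23. Translation efficiency under the PRMT1 label gave 46 with a pseudocount of 5, 191 with a filter of 1 TPM and 272 with no filter, against 84. Under the PRMT4 label it gave 95 with a pseudocount of 5, 358 with a filter of 1 TPM and 88 without centring, against 193. PRMT1 over PRMT4 label in the input gave 46 with a pseudocount of 5, 140 with a filter of 1 TPM, 158 with no filter and 61 without centring, against 93. In the footprints it gave 65 and 21 with pseudocounts of 0.1 and 5, 102 with a filter of 1 TPM, 186 with no filter and 68 without centring, against 40. The adjustment for GC content and transcript length and the rescaling to protein-coding genes left all 8 counts within 1.5 times. With centred ratios in place of TPM, a scale chosen after seeing the data, the order of lowest libraries of TSC22D3 and DDIT4 was shown by 1112 tested genes against 741, and that of the other members by 2046 against 4255.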

Other observations

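Lists of the members' relatives by family had medians near that of all tested genes, while some single genes lay further off. Of the TSC22 family and its partners, 5 passed the filter, with medians between -0.12 and 0.05 over the 4 ratios to DMSO. TSC22D1 stood at -0.02 in the PRMT1-label input and 0.05 in the PRMT4-label input, and TSC22D4 at 0.04 and 0.19 in the same libraries. Of the KLF family, 10 passed the filter, with medians between -0.10 and 0.05. KLF16 stood at -0.57 in the PRMT1-label footprints and 0.01 in the PRMT4-label footprints. Of the circadian clock genes, the family of PER1's partners, 11 passed the filter, with medians between -0.04 and 0.04. NPAS2, a clock activator, stood at -0.75 in the PRMT1-label footprints and -0.26 in the PRMT4-label footprints.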
